A study of Mus musculus with 21 samples.

Results

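The endothelial genes described here are 32 markers and regulators of the cells that line blood and lymph vessels, taken by gene symbol from the deposited abundance table. Each of the 32 stood on 1 entry among the 55573 entries of the table. Abundance was given as TPM, a length-corrected share of all transcripts in a library, scaled to a fixed total. The tests took entries whose mean over the 21 libraries reached 1 TPM, which left 18977 entries and 26 of the 32 genes. Of these 26, 18 also reached a mean of 1 TPM in the unheated libraries, and the other 8 (Tek, Tie1, Icam2, Emcn, Cd93, Robo4, Mmrn2 and Erg) passed only because of the heated ones. Plvap, Clec14a, Nos3, Fli1, Sox7 and Tal1 stayed below the limit and are described by their values.

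RNA was sequenced from whole testes of C57BL6 male mice that were wild type or Mageb4 knockout. Without heat there were 6 wild-type and 6 Mageb4 knockout libraries, and at 72 h after heat shock there were 4 wild-type and 5 Mageb4 knockout libraries. The labels call the replicates biological. How hot and how long the heat shock was, how old the mice were and which knockout allele they carried is not stated in these sources. A whole testis holds germ cells, Sertoli cells and the interstitium with its vessels, so a TPM value of an endothelial gene measures its share in the RNA of all these cells. In such bulk samples, more endothelial cells, more RNA of a gene per endothelial cell and less RNA from the other cells cannot be told apart.

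Endothelial growth and survival are controlled by vascular endothelial growth factors, read by Kdr, Flt1 and Flt4, and by angiopoietins, read by Tek with its partner Tie1. Neighbouring cells are joined by VE-cadherin (Cdh5), claudin 5 (Cldn5) and adhesion molecules such as Pecam1 and Esam, and ETS and SOXF transcription factors hold the cell type's program. In the testis, vessels run in the interstitium between the seminiferous tubules, beside the Leydig cells, and stay outside the tubules in which germ cells mature.

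Because most of these genes moved together after heat, the DNA before the start of some of them is shown. RefSeq starts (GRCm38.p6) were listed for 14 of the 32 genes, and 11 of these had a single listed start and could be shown. Of these 11, 9 kept at least 150 bases between the start of the window, 250 bases before the RefSeq start, and the first exon in GENCODE M21. The 2 with the largest and the 2 with the smallest fold after heat in wild type are printed, 5′ to 3′ on the strand of the gene. Capitals mark the ETS core AGGAAG or its reverse complement CTTCCT; ETS factors are the family of Ets1, Erg and Fli1. The stretches are chr9:37401722-37401896 (plus strand) for Robo4, chr1:194938571-194938818 (plus strand) for Cd34, chr2:32646345-32646594 (plus strand) for Eng and chr5:147726012-147726261 (minus strand) for Flt1.
Robo4: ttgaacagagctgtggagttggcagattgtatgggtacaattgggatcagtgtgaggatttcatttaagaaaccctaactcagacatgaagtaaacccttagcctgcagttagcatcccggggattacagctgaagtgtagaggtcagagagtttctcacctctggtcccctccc
Cd34: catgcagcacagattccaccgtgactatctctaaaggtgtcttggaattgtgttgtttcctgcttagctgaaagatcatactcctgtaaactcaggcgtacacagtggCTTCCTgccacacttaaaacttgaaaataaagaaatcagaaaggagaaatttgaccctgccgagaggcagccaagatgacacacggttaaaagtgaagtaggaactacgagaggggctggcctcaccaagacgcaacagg
Eng: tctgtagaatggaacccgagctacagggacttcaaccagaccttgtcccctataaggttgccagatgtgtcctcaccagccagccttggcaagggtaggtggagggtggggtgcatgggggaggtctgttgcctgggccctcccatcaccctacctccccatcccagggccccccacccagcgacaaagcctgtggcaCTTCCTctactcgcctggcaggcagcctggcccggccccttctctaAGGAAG
Flt1: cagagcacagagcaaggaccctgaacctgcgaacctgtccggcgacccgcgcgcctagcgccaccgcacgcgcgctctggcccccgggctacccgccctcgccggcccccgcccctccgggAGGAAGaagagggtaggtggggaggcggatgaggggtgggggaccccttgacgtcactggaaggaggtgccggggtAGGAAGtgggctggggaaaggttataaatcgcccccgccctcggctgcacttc
The printed stretch held 0 such matches for Robo4, 1 for Cd34, 2 for Eng and 2 for Flt1, while the whole 250-base window of Robo4 held 1. GC content was 47.4% for Robo4, 46.4% for Cd34, 62.4% for Eng and 70.4% for Flt1. On either strand of the 250 bases, AGGAAG occurred in 9 of the 19 endothelial windows and in 29.5% of all 32851 windows, and CGGAAG, the other ETS core searched, in 1 of 19 and in 13.6%. These cores differ in their first base, so both cannot match at the same place. The SOX core ACAAT occurred in 6 of 19 windows and in 27.7% of all, and the GATA core AGATAA in 2 of 19 and in 3281 of the 32851. Some genes have several windows, and a match of letters is not a bound site.

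Mageb4, the targeted gene, had means of 1.80 ± 0.173 TPM (SD, n = 6) in wild type without heat and 8.03 ± 0.222 (n = 4) with heat. In the knockout it lay between 0.01 and 0.15 TPM in all 11 libraries. Every library had the same TPM total, and 17243 to 18547 entries per library reached 1 TPM. TPM does not keep the number of reads, so the depth is unknown. Heat moved most of the transcriptome: 91.6% of the entries tested were called in wild type and 82.8% in the knockout, with a median log2 change over all entries of 0.06 and 0.0066. Scaling libraries by the median of ratios moved the wild-type median to -0.13, and quantile normalization moved it to 0.14. One heated wild-type library, replicate 3, held epididymal RNA, with Crisp1, a secreted protein of the epididymis, at 2125.82 TPM against at most 3.81 in every other library. It was the lowest heated wild-type library for 17 of the 32 genes, and leaving it out changed none of the counts of endothelial genes called below.

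The endothelial genes were present in every library before and after heat. Pecam1 lay between 1.39 and 10.88 TPM, Cdh5 between 2.24 and 19.56 and Kdr between 0.89 and 5.26 over the 21 libraries. Summed over the 32 genes, the level was 64.54 to 72.49 TPM in unheated wild type and 72.06 to 79.29 in the unheated knockout. After heat it was 259.55 to 324.57 TPM in wild type and 125.04 to 178.84 in the knockout. The heated knockout lay between the unheated libraries and heated wild type, with no overlap on either side. Without heat Egfl7 (15.25%), Sox17 (11.77%) and Cd34 (10.79%) gave the largest shares of the wild-type sum, and after heat Cd34 (24.23%) and Robo4 (10.73%) did.

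**Figure D1:**
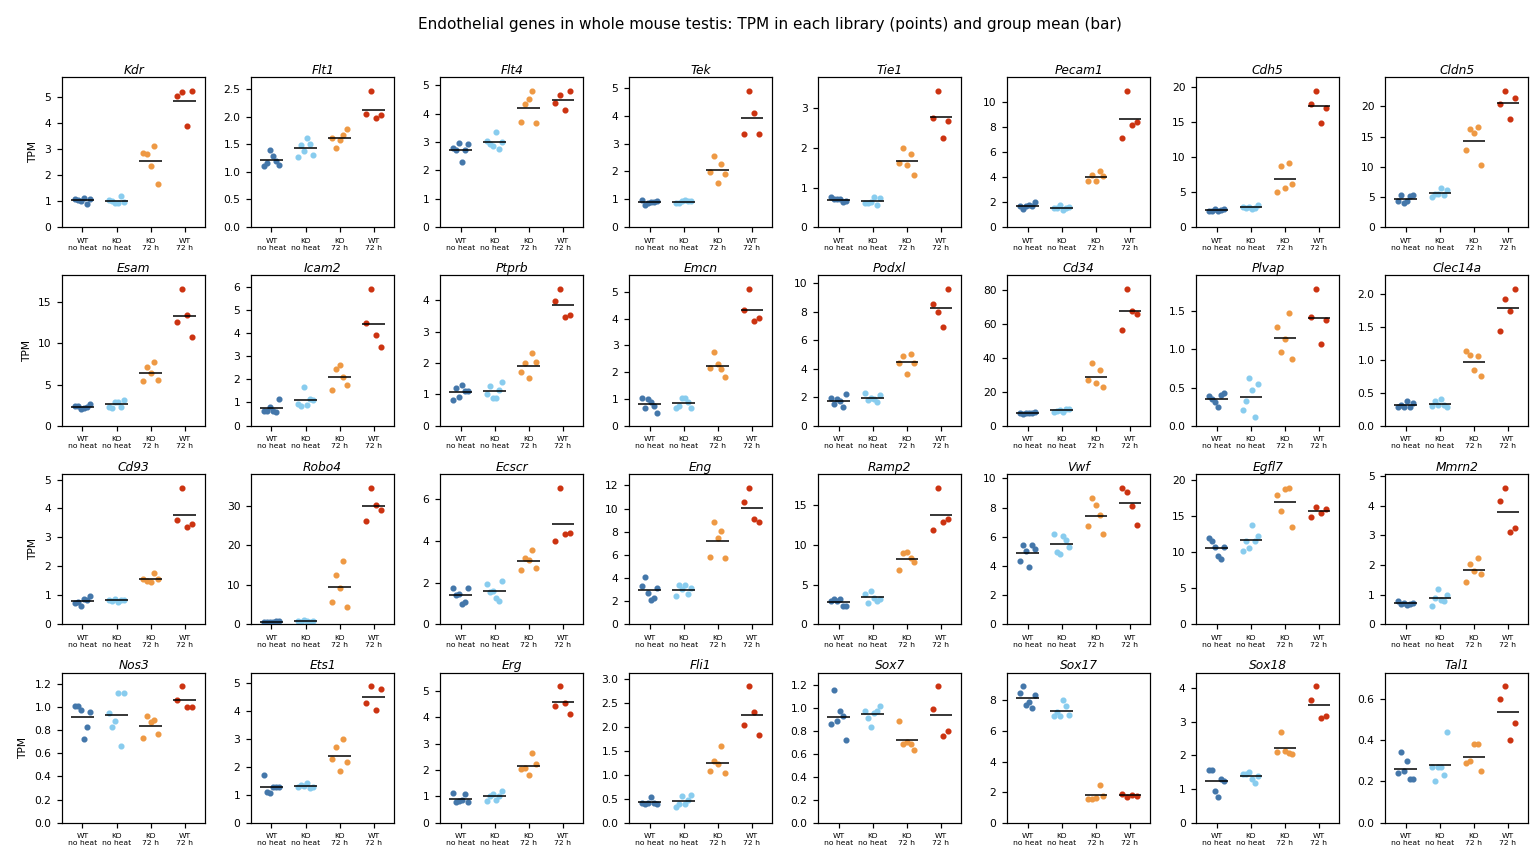
TPM of each of the 32 endothelial genes (1 panel each, linear axis from 0) in each library (points), with the group mean as a bar, for wild type (WT) and Mageb4 knockout (KO) without heat and 72 h after heat. Most panels step up from the unheated groups to the heated knockout and again to heated wild type, as in Cd34 with means of 7.45, 8.98, 29.0 and 67.6 TPM, while Sox17 steps down and Nos3 and Sox7 stay near 1 TPM.

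The first question was how heat changed these genes in wild type. With limma, 25 of the 26 tested endothelial genes were higher at 72 h after heat, where 47% of all entries tested were higher, and 1, Sox17, was lower, where 44.6% were. Among the 18 that did not need the heated libraries to pass the filter, 17 were higher and 1 lower, with a median log2 change of 1.39. Over all 32 genes, the heated libraries lay above every unheated library for 29 and below for 1, against 44.5% and 42% of the entries tested. The median fold in mean TPM over the 32 was 4.36. The size differed widely between genes: 23 were at 3-fold or more, 1 of them (Robo4) over 10-fold, and 6 (Flt1, Flt4, Vwf, Egfl7, Nos3 and Sox7) were between 0.5 and 2-fold.

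Among the growth factor receptors, all 5 rose in heated wild type, against 47% of all entries tested. Of these, Tek and Tie1 passed the filter only because of the heated libraries, so their rise is not independent of it. Tek, the angiopoietin receptor, spans chr4:94739289-94874976 (GRCm38, plus strand). It had a lowest, median and highest value of 0.79, 0.90 and 0.98 TPM in unheated wild type and 0.85, 0.925 and 0.98 in the unheated knockout. In heated wild type it was at 3.35, 4.90, 4.08 and 3.35 TPM in replicates 1 to 4, and in the heated knockout at 1.97, 2.54, 1.59, 2.28 and 1.90 in replicates 1 to 5. All heated libraries were above all unheated ones, and the heated knockout stayed below heated wild type. Its log2 change was 1.37 ± 0.09 (moderated SE) in wild type (adjusted p = 2.06e-12, limma) and 0.67 ± 0.08 in the knockout (adjusted p = 1.91e-07). Kdr, the main signalling receptor for VEGF-A, rose 4.68-fold in wild type, from a mean of 1.04 ± 0.0875 TPM (SD, n = 6) to 4.86 ± 0.639 (n = 4), and Tie1, which works with Tek, rose 3.99-fold.

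Flt1 (chr5:147561604-147726011, minus strand), which binds VEGF-A tightly and is also known in a soluble form, changed least by moderated t among the receptors. It was at 1.11, 1.175 and 1.39 TPM (lowest, median, highest) in unheated wild type and at 2.04, 2.47, 1.97 and 2.02 in heated wild type. In the knockout it was at 1.27, 1.43 and 1.62 TPM without heat and at 1.62, 1.43, 1.58, 1.66 and 1.77 after heat. The wild-type groups did not overlap, and the knockout groups did. The log2 change was 0.50 ± 0.07 in wild type (adjusted p = 4.07e-07, limma) and 0.11 ± 0.06 in the knockout (adjusted p = 0.121), which made Flt1 the 1 tested endothelial gene not called after heat in the knockout. Flt4, the receptor for VEGF-C found on lymphatic vessels, rose 1.64-fold in wild type and 1.41-fold in the knockout.

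All 6 junction and adhesion genes rose in heated wild type, against 47% of all entries tested, with folds from 3.58 for Ptprb, a phosphatase that acts on VE-cadherin and Tek, to 7.19 for Cdh5. Icam2 among them passed the filter only because of the heated libraries, so its rise is not independent of it. Cdh5, the cadherin of endothelial junctions, had means of 2.41 ± 0.168 TPM (SD, n = 6) in wild type without heat, 2.84 ± 0.183 (n = 6) in the unheated knockout, 17.3 ± 1.91 (n = 4) in wild type after heat and 6.94 ± 1.88 (n = 5) in the knockout after heat. Its log2 change was 2.42 ± 0.12 in wild type (adjusted p = 9.96e-15, limma) and 1.02 ± 0.11 in the knockout (adjusted p = 1.75e-08). Pecam1 (chr11:106654217-106750628, minus strand), the CD31 adhesion molecule, was at 1.48, 1.71 and 2.00 TPM (lowest, median, highest) in unheated wild type and 1.39, 1.555 and 1.80 in the unheated knockout. After heat it was at 7.12, 10.88, 8.16 and 8.39 TPM in wild type and 3.67, 4.15, 3.65, 4.47 and 4.06 in the knockout. The 3 levels, unheated, heated knockout and heated wild type, were fully separated. The log2 change was 1.81 ± 0.09 in wild type (adjusted p = 8.56e-15, limma) and 0.96 ± 0.08 in the knockout (adjusted p = 3.89e-10).

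Icam2 (chr11:106377656-106388075, minus strand), a ligand for leukocyte integrins that endothelium carries without stimulation, had the smallest moderated t of this group. It was at 0.61, 0.645 and 1.16 TPM in unheated wild type and at 4.41, 5.89, 3.93 and 3.39 in heated wild type. In the knockout it was at 0.86, 1.005 and 1.65 TPM without heat and at 1.56, 2.43, 2.60, 2.09 and 1.74 after heat. In wild type the groups were apart, and in the knockout the highest unheated library was above the lowest heated one. On the log2 scale the change was 1.62 ± 0.13 in wild type (adjusted p = 8.54e-11, limma) and 0.56 ± 0.12 in the knockout (adjusted p = 0.00026). The remaining members of the group were Cldn5, the claudin of endothelial tight junctions (4.34-fold in wild type, 2.55-fold in the knockout), and Esam (5.79-fold and 2.50-fold).

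The surface glycoproteins held both genes with the largest changes. All 8 tested members of this group of 10 rose with heat in both genotypes, where 47% of all entries tested were higher in wild type and 41.3% in the knockout. Emcn, Cd93 and Robo4 among them passed the filter only because of the heated libraries, so their rise is not independent of it. Cd34 (chr1:194938819-194961279, plus strand), a sialomucin also carried by stromal cells and blood progenitors, was at 6.90, 7.465 and 7.92 TPM (lowest, median, highest) in unheated wild type and 8.17, 9.015 and 9.74 in the unheated knockout. After heat it was at 56.5, 80.58, 67.45 and 65.99 TPM in wild type and 26.67, 37.14, 25.31, 33.02 and 22.62 in the knockout. All 4 groups were separate from each other. In log2 terms heat changed it by 3.01 ± 0.11 in wild type (adjusted p = 1.57e-16, limma) and 1.57 ± 0.10 in the knockout (adjusted p = 8.24e-12).

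Robo4, an endothelial receptor of the roundabout family linked to vessel stability, stood apart; it is singled out here after its values were seen. It was at 0.44, 0.655 and 0.73 TPM (lowest, median, highest) in unheated wild type and 0.61, 0.83 and 0.97 in the unheated knockout. After heat in wild type it was at 26.18, 34.57, 30.24 and 28.79 TPM, a 47.8-fold higher mean. In the heated knockout it was at 5.62, 12.46, 9.24, 16.03 and 4.25 TPM, a 12.0-fold higher mean. No heated library came near an unheated one, and every heated knockout library was below every heated wild-type one. The heated knockout libraries themselves spread widely. The log2 change was 4.25 ± 0.21 in wild type (adjusted p = 2.51e-14, limma) and 2.42 ± 0.20 in the knockout (adjusted p = 3.41e-10). On chromosome 9 (GRCm38, 37401897 to 37415115, plus strand) Robo4 has 2 protein-coding neighbours within 20 kb. Robo3, 554 bases away on the minus strand, had means of 0.22 TPM without and 1.16 with heat in wild type, and 0.23 and 0.29 in the knockout. Hepacam, 15322 bases away, had means of 11.6 and 2.70 TPM in wild type, and 11.2 and 6.21 in the knockout. Esam, another of the 32, lies 113.0 kb from Robo4.

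Ecscr, a small endothelial membrane protein, had the smallest moderated t of the surface group. It was at 0.95, 1.43 and 1.75 TPM in unheated wild type and 4.01, 6.56, 4.31 and 4.38 after heat. In the knockout it was at 1.11, 1.565 and 2.06 TPM without heat and 2.59, 3.2, 3.08, 3.55 and 2.71 after heat. Heated and unheated libraries did not overlap in either genotype. Its change on the log2 scale was 1.27 ± 0.13 in wild type (adjusted p = 4.76e-09, limma) and 0.65 ± 0.12 in the knockout (adjusted p = 4.37e-05). The other tested members were Emcn (5.43-fold in heated wild type), Podxl (4.70-fold), Cd93 (4.71-fold), Eng, a co-receptor for BMP and TGF-beta ligands (3.45-fold), and Ramp2, the subunit that makes Calcrl an adrenomedullin receptor (4.92-fold). In the knockout the same 5 genes were at 1.89-fold (Cd93) to 2.67-fold (Emcn).

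Plvap, which forms the diaphragms of fenestrae, and Clec14a, a C-type lectin of vessels, were too low to be tested with the rest. Plvap was at 0.24, 0.37 and 0.43 TPM in unheated wild type and 1.42, 1.79, 1.07 and 1.38 after heat, and at 0.11, 0.395 and 0.63 in the unheated knockout and 1.29, 0.96, 1.13, 1.48 and 0.88 after heat. Clec14a was at 0.28, 0.305 and 0.37 TPM in unheated wild type and 1.43, 1.92, 1.74 and 2.07 after heat, and at 0.28, 0.31 and 0.40 in the unheated knockout and 1.13, 1.07, 0.84, 1.05 and 0.76 after heat. For both, every heated library was above every unheated one of its genotype. In a limma fit without the filter, the wild-type log2 change was 0.83 ± 0.10 for Plvap (adjusted p = 5.09e-07) and 1.08 ± 0.06 for Clec14a (adjusted p = 2.26e-12).

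The secreted proteins changed less, apart from Mmrn2. All 3 that were tested were higher in heated wild type, against 47% of all entries tested. Mmrn2 among them passed the filter only because of the heated libraries, so its rise is not independent of it. Mmrn2 (chr14:34375465-34404287, plus strand), a matrix glycoprotein that binds Clec14a and Cd93, was at 0.64, 0.705 and 0.77 TPM (lowest, median, highest) in unheated wild type and 4.15, 4.61, 3.10 and 3.25 after heat. In the knockout it was at 0.60, 0.855 and 1.18 TPM without heat and 1.43, 2.04, 1.80, 2.23 and 1.69 after heat. Its groups were as separate as those of Pecam1. Heat moved it on the log2 scale by 1.47 ± 0.10 in wild type (adjusted p = 3.28e-12, limma) and 0.60 ± 0.09 in the knockout (adjusted p = 4.15e-06). Vwf, the clotting factor carrier stored in endothelial granules and in platelets, rose 1.70-fold in wild type and 1.35-fold in the knockout.

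Egfl7 (chr2:26580014-26593120, plus strand), a secreted angiogenic factor and the most abundant of the 32 genes without heat, had nearly the same change in both genotypes. It was at 8.98, 10.69 and 11.92 TPM in unheated wild type and 14.83, 16.28, 15.39 and 15.95 after heat. In the knockout it was at 10.2, 11.54 and 13.74 TPM without heat and 17.94, 15.62, 18.78, 18.91 and 13.49 after heat. The heated knockout reached higher than any heated wild-type library, and its lowest library fell within the unheated range. The fitted log2 change was 0.53 ± 0.09 in wild type (adjusted p = 1.85e-05, limma) and 0.50 ± 0.09 in the knockout (adjusted p = 2.31e-05). Nos3, the endothelial nitric oxide synthase, was at 0.72, 0.965 and 1.01 TPM in unheated wild type and 1.06, 1.18, 1.00 and 1.00 after heat. In the knockout Nos3 was at 0.66, 0.915 and 1.12 TPM without heat and 0.73, 0.92, 0.87, 0.89 and 0.77 after heat. Nos3 overlapped between heat and no heat in both genotypes, and in a fit without the filter it missed the threshold in wild type (log2 change 0.11 ± 0.07, adjusted p = 0.179, limma) and in the knockout (-0.07 ± 0.06, adjusted p = 0.427).

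Of the 4 transcription factors tested, 3 rose and 1 fell in heated wild type, against 47% and 44.6% of all entries tested. Erg, 1 of those that rose, passed the filter only because of the heated libraries. Of the ETS factors, Erg rose 4.99-fold and Ets1 3.51-fold in heated wild type, and 2.15-fold and 1.84-fold in the knockout. Fli1, the third of them, was at 0.39, 0.41 and 0.53 TPM in unheated wild type and 2.05, 2.86, 2.31 and 1.84 after heat. In the knockout Fli1 was at 0.32, 0.43 and 0.58 TPM without heat and 1.08, 1.30, 1.24, 1.61 and 1.05 after heat. Its heated libraries were above all unheated ones, and the fit without the filter gave a log2 change of 1.19 ± 0.08 in wild type (adjusted p = 3.61e-11, limma) and 0.64 ± 0.07 in the knockout (adjusted p = 3.63e-07). Fli1 and Ets1 lie 93.4 kb apart on chromosome 9.

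Sox17 (chr1:4490931-4497354, minus strand), the SOXF factor of arterial endothelium, also known from germ cells of the testis in a shortened form, was the 1 of the 26 tested endothelial genes that fell. It was at 7.48, 8.095 and 8.92 TPM (lowest, median, highest) in unheated wild type and 6.95, 7.145 and 8 in the unheated knockout. After heat it was at 1.88, 1.66, 1.83 and 1.77 TPM in wild type and 1.57, 1.55, 1.64, 2.46 and 1.77 in the knockout. The heated ranges of the genotypes overlapped each other, and neither overlapped the unheated libraries. It fell by 1.71 ± 0.08 on the log2 scale in wild type (adjusted p = 3.84e-15, limma) and by 1.58 ± 0.07 in the knockout (adjusted p = 5.42e-14), a 4.55-fold and a 4.06-fold lower mean TPM.

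Sox18 (chr2:181669836-181671640, minus strand), a SOXF factor of blood and lymphatic vessels, rose. It was at 0.76, 1.275 and 1.58 TPM in unheated wild type and 3.66, 4.06, 3.10 and 3.18 after heat, and at 1.18, 1.42 and 1.51 in the unheated knockout and 2.11, 2.71, 2.14, 2.06 and 2.04 after heat. Every heated library was higher than the unheated ones, by a log2 change of 1.02 ± 0.10 in wild type (adjusted p = 3.11e-09, limma) and 0.43 ± 0.09 in the knockout (adjusted p = 0.000288). Sox7, the remaining SOXF factor, was at 0.72, 0.91 and 1.16 TPM in unheated wild type and 0.99, 1.19, 0.76 and 0.80 after heat, with full overlap. In the knockout Sox7 was at 0.83, 0.965 and 1.02 TPM without heat and 0.89, 0.69, 0.70, 0.69 and 0.63 after heat. Without the filter its log2 change was 0.0078 ± 0.07 in wild type (adjusted p = 0.965, limma) and -0.18 ± 0.06 in the knockout (adjusted p = 0.0213). Tal1, a factor shared by blood and endothelial cells, was at 0.21, 0.245 and 0.34 TPM in unheated wild type and 0.60, 0.66, 0.40 and 0.48 after heat, and at 0.20, 0.27 and 0.44 in the unheated knockout and 0.29, 0.30, 0.38, 0.38 and 0.25 after heat. Tal1 was higher in every heated wild-type library and overlapped in the knockout.

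The second question was whether the knockout responded to the same heat. In the knockout, 24 of the 26 tested genes were higher after heat (41.3% of all entries tested), 1, Sox17, was lower (41.5%), and Flt1 was not called. The same 24 genes were higher in both genotypes. Among the 18 genes that passed the filter without the heated libraries, 16 were higher, with a median log2 change of 0.73. Over all 32 the heated knockout libraries lay above every unheated one for 25 genes (33.9% of entries tested) and below for 1 (35.8%), and the median fold was 2.20. Only Cd34, Robo4 and Plvap were at 3-fold or more. The log2 change in the knockout was 0.344 to 0.943 of that in wild type over the 24 genes, with a median of 0.516. The 2 heat effects share no library, and across the 26 genes they had a Pearson correlation of 0.966 and a Spearman correlation of 0.898, given as a description since genes of one tissue share their libraries.

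**Figure D2:**
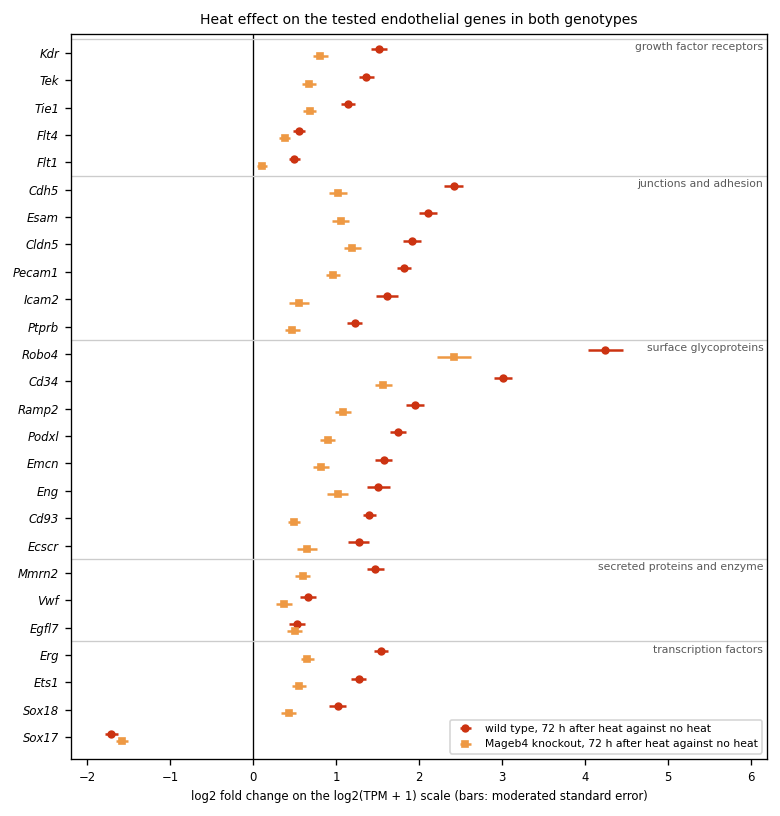
Log2 change after heat on the log2(TPM + 1) scale for the 26 tested endothelial genes, grouped by role, in wild type (red circles) and Mageb4 knockout (orange squares), with bars for the moderated standard error. The knockout value lies closer to 0 than the wild-type value for all 26 genes, with a wide gap for Robo4 (2.42 against 4.25) and almost none for Egfl7 (0.50 against 0.53) or Sox17 (-1.58 against -1.71).

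Without heat, no endothelial gene passed the test between the knockout and wild type. With limma, 0 of 26 were called, where 1.33% of all entries tested were (1.25% higher and 0.0843% lower in the knockout), and 4 (Cd34, Flt1, Icam2 and Cldn5) had an unadjusted p under 0.05. The median log2 difference was 0.10, with 22 genes higher in the knockout and 4 lower, and over all entries tested it was 0.027. With quantile normalization the endothelial median was 0.040 and that over all entries -0.0080. Cd34 was the 1 gene without overlap, its lowest knockout library being at 8.17 TPM and its highest wild-type library at 7.92, where 4.33% of all entries tested lay fully higher. Its log2 difference was 0.24 ± 0.10 with an adjusted p of 0.209. Cd34 was called in a fit of the 2 unheated groups alone (adjusted p = 0.0247, limma) and with array quality weights (adjusted p = 0.0189). Over all entries, 237 were higher and 16 lower in the unheated knockout, and with quantile normalization 44 were higher and 26 lower.

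After heat the 2 genotypes were apart. With limma, 22 of the 26 genes were lower in the heated knockout than in heated wild type, where 49% of all entries tested were lower, and 0 were higher. Of the 18 that did not need the heated libraries to pass the filter, 14 were lower, with a median log2 difference of -0.59. Over all 32 genes the heated knockout libraries lay below every heated wild-type library for 26, against 42.5% of the entries tested. The largest log2 differences were -1.68 ± 0.22 for Robo4 (adjusted p = 5.61e-07, limma), -1.23 ± 0.12 for Cdh5 (adjusted p = 7.9e-09) and -1.21 ± 0.11 for Cd34 (adjusted p = 4.71e-09). Flt4, Vwf, Egfl7 and Sox17 did not pass the test, with log2 differences of -0.08, -0.15, 0.10 and -0.0024. Of all entries, 83.5% were called in either direction, 34.4% higher, and 29.9% lay fully higher. Under other scalings the sign of the difference turned for Flt4 and Sox17, and with quantile normalization Egfl7 passed as higher in the knockout (adjusted p = 0.0489) and Sox17 as lower (log2 difference -0.29, adjusted p = 0.00312). Eng did not pass with array weights (adjusted p = 0.13).

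The difference between the heat effects of the 2 genotypes was tested as an interaction. With limma, 22 of the 26 genes rose less in the knockout, where 47.6% of all entries tested had a lower heat effect there, and 0 rose more, where 33.2% of entries had a higher effect and 80.7% either. Of the 18 genes that passed the filter without the heated libraries, 14 rose less, with a median difference of -0.71. The interaction rests on the same heated libraries as the comparison before it, so the counts are not independent of each other. The largest interaction terms on the log2 scale were -1.82 ± 0.29 for Robo4 (adjusted p = 9.35e-06), -1.45 ± 0.15 for Cd34 (adjusted p = 3.37e-08) and -1.40 ± 0.16 for Cdh5 (adjusted p = 1.04e-07). The smallest that passed were -0.39 ± 0.09 for Flt1 (adjusted p = 0.000599), -0.46 ± 0.11 for Tie1 (adjusted p = 0.000869) and -0.49 ± 0.18 for Eng (adjusted p = 0.0193). Eng did not pass with median-of-ratios scaling (adjusted p = 0.0822), with quantile normalization (adjusted p = 0.0696) or with array weights (adjusted p = 0.161), nor without heated wild-type replicate 2 (adjusted p = 0.0521). Flt4, Vwf, Egfl7 and Sox17 again missed the threshold, with terms of -0.18, -0.29, -0.03 and 0.13. Flt4 passed without heated knockout replicate 4 (-0.22, adjusted p = 0.0472), and Vwf passed in 7 of the fits that left out 1 library (adjusted p = 0.017 to 0.0487).

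For 22 of the 32 genes the libraries fell into 3 separate levels, unheated below heated knockout below heated wild type. Of the 26 tested genes 20 did so, where 25.9% of all entries tested did, and of the 18 genes that did not need the heated libraries to pass the filter, 13 did. Within the heated knockout the libraries also differed in step. Their summed endothelial TPM was 137.07, 174.23, 150.12, 178.84 and 125.04 in replicates 1 to 5, and Robo4 followed the same order. Replicate 4 was the highest heated knockout library for 18 of the 32 genes and replicate 5 the lowest for 16. In heated wild type, replicate 2 was the highest library for 26 of the 32.

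The endothelial genes did not rise alone, as 47% of all entries tested were higher and 44.6% lower in heated wild type. Of the other cell types, 18 of 18 Sertoli cell genes, 14 of 14 Leydig cell genes, 12 of 12 pericyte and smooth muscle genes and 12 of 12 stromal genes tested were higher in heated wild type, with median log2 changes of 2.80, 1.97, 1.35 and 1.72. The endothelial median was 1.49. As folds in mean TPM, the wild-type medians were 7.605, 4.456, 3.846 and 4.292 in the same order. The tested endothelial genes had a median fold of 4.529, above those of the Leydig, pericyte and stromal lists. Of the leukocyte list 16 of 17 tested genes were higher (median 2.08), of the red blood cell list 5 of 5 and of the platelet list 3 of 3. In the knockout the same lists had medians of 1.56 (Sertoli), 1.30 (Leydig), 0.73 (pericytes), 1.07 (stroma) and 1.102 (leukocytes), against 0.66 for the endothelial genes. Their median folds in mean TPM there were 3.171, 2.619, 2.018, 2.572 and 2.335, against 2.2 for the tested endothelial genes. Round spermatid genes went the other way, 14 of 15 lower in wild type with a median of -4.44 and 13 of 15 lower in the knockout with -1.94. Of 15 pachytene and diplotene spermatocyte genes, 13 were lower in wild type (median -2.39) and 13 in the knockout (-0.96).

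**Figure D3:**
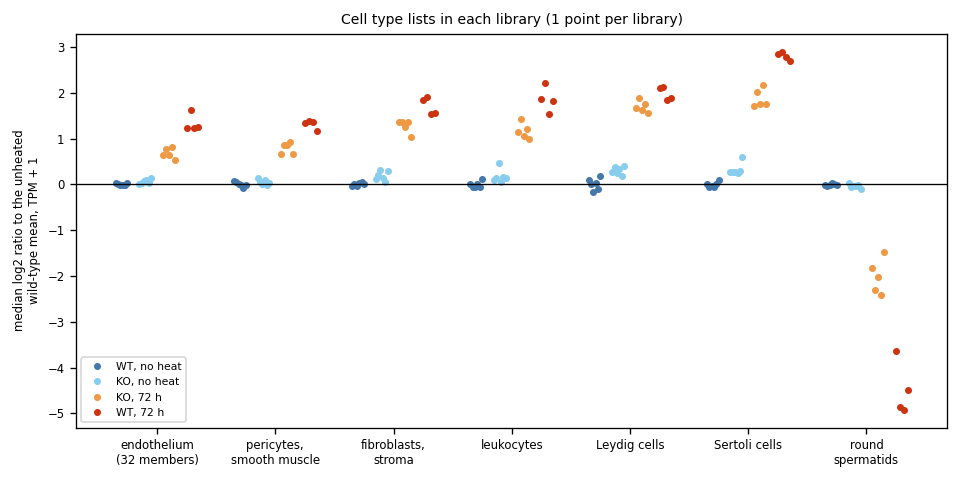
Median over each gene list of the log2 ratio of TPM + 1 to the unheated wild-type mean, 1 point per library, for the endothelial genes and 6 other cell type lists, with wild type (WT) and Mageb4 knockout (KO) without heat and 72 h after heat. The endothelial points of heated wild type lie at 1.24 to 1.62 and the heated knockout points at 0.53 to 0.82, near the pericyte points and below the Sertoli points, while the round spermatid points fall to between -4.92 and -3.64 (heated wild type) and between -2.41 and -1.48 (heated knockout).

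The summed levels of these lists differed between the groups. Sertoli genes summed to 1657.89 to 1899.23 TPM in unheated wild type, 2121.65 to 2777.4 in the unheated knockout, and after heat 13183 to 15982 in wild type and 6054.77 to 8591.17 in the knockout. Pericyte and smooth muscle genes summed to 88 to 99.91, 90.79 to 115.12, 283.83 to 359.65 and 179.07 to 233.49 TPM in the same order. Round spermatid genes summed to 4449.2 to 4650.05, 4197.25 to 4448.23, 1486.55 to 1906.04 and 2626.62 to 3156.63 TPM. Leydig genes summed to 1712.57 to 2359.03 TPM in unheated wild type, 2210.35 to 3160.05 in the unheated knockout, then 7387.71 to 9894.01 with heat and 6140.84 to 7775.24 in the knockout with heat, and stromal genes to 349.17 to 388.22, 409.01 to 509.8, 2797.93 to 3402.61 and 1172.26 to 1769.7. No gene of these 5 lists was at 0 in any library. Leukocyte genes summed to 880.97 to 934.93 TPM in unheated wild type, 870.72 to 1030.34 in the unheated knockout, 777.7 to 1007.71 in wild type with heat and 1232 to 1460.35 in the knockout with heat, with 0 to 2 of their 22 genes at 0. The median log2 ratio of the round spermatid list in heated knockout replicates 1 to 5 was -1.82, -2.31, -2.03, -2.41 and -1.48. In this group the library with the deepest fall had the highest endothelial sum and Robo4, and the order was the same over all 5. It was not the same in heated wild type. Replicate 3 had the deepest fall there (-4.92), with an endothelial sum of 263.74 TPM and Robo4 at 30.24 TPM. Replicate 2 (-4.87) had the highest sum (324.57 TPM) and Robo4 (34.57 TPM). The part of these other cells in the endothelial changes was not tested.

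The ratio of the endothelial sum to the sums of other cell types changed unequally. Against the leukocyte list it was 0.0693 to 0.0823 in unheated wild type and 0.287 to 0.339 after heat, and 0.0741 to 0.0911 and 0.0939 to 0.144 in the knockout. Of that list's sum, Aif1 alone gave 793 TPM on average in unheated wild type, 154 in wild type with heat and 902 in the knockout with heat. The ratio of the endothelial sum to the pericyte and smooth muscle sum changed with heat by 0.25 on the log2 scale in wild type and by 0.05 in the knockout. The ratio to the Leydig sum changed by -0.13 in wild type and -0.43 in the knockout, and the ratio to the Sertoli sum by -1.03 and -0.67. Medians of log2 ratios of TPM + 1 in place of sums gave pericyte values of 0.03 in wild type and -0.13 in the knockout. The Leydig values were then -0.64 and -0.78. Without heat, 5 of 18 Sertoli genes and 3 of 14 Leydig genes were higher in the knockout, and 0 of 26 endothelial genes were. Of all entries tested, 1.25% were higher there, so 0 of 26 is near the share over all entries. Tal1, Pecam1, Vwf and Fli1 are also made by platelets or their precursors. The platelet list summed to 6.79 to 10.79 TPM in unheated wild type and 46.25 to 59.94 in heated wild type, largely from Gp1bb and Pf4. All 3 of its tested genes were higher in heated wild type (median log2 change 1.97). Gp9, a low gene of the list, had a mean of 0.022 TPM without heat and 0.083 after heat in wild type. Between 0 and 3 of the 8 platelet genes were at 0 in a library. Their part in the values of these genes was not tested.

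Other genes of the vascular pathways moved in both directions. Of all entries tested, 47% were higher and 44.6% lower in heated wild type, and 41.3% and 41.5% in the heated knockout. Of 20 tested angiogenic ligands and partners, 17 were higher and 2 lower in heated wild type (median log2 change 1.67), and 18 were higher and 2 lower in the knockout (median 0.72). Of the ligands of the receptors above, Vegfa rose 4.69-fold and Vegfd 4.47-fold in wild type, and 1.58-fold and 2.55-fold in the knockout. They are examples named for that link, and Vegfb, Vegfc, Pgf and Angpt1 of the same list are not described here. Vegfd was also the 1 gene of this list called without heat, with a log2 difference of 0.33 in the knockout (adjusted p = 0.0472, limma). Angpt2, the antagonist of Tek, did not pass in wild type (log2 change -0.28, adjusted p = 0.0508, limma) and rose 1.34-fold in the knockout. Nrp1, a co-receptor of Kdr, rose 6.93-fold in wild type and 2.59-fold in the knockout. Epas1, the hypoxia-inducible factor first found in endothelium, rose in wild type from 9.04 to 53.7 TPM, and in the knockout from 11.02 to 26.96 TPM. Smad6, an inhibitor of BMP signalling, fell in wild type from 18.2 to 0.575 TPM, and in the knockout from 15.4 to 1.63 TPM.

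Of 11 tested Notch and ephrin genes, 7 were higher and 4 lower in heated wild type (47% and 44.6% of all entries tested). The vein factor Nr2f2 rose 5.44-fold and the arterial ligand Efnb2 3.55-fold, while Notch4, Jag1, Jag2 and Hey1 were lower. Of the lymphatic list, Pdpn rose 5.59-fold and Prox1, the master factor of lymphatic identity, fell 7.22-fold in wild type. All 5 tested genes of the inflamed endothelium list rose (median log2 change 2.61), with Il1r1 at 9.80-fold and Nfkbia at 5.76-fold, and Sele, the endothelial selectin of inflammation, was listed at a mean of 0.40 TPM without heat and 0.098 after heat. Of 29 tested endothelial genes outside the 32, 18 were higher and 9 lower in wild type (47% and 44.6% of all entries tested). In the knockout 19 of that list were higher and 8 lower (41.3% and 41.5%). The largest moderated t in that list were falls, of Klf4 from 71.6 to 6.19 TPM and of Gata2 from 18.8 to 1.74 TPM in wild type. Klf4 is a flow-regulated factor in endothelium and is also known from postmeiotic germ cells.

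Several of the 32 genes share exonic bases with another gene that was at 1 TPM or more, 7 in all, and the strand setting of the counting is not stated in the sources used. Sox17 shares 804 bases (16.9% of its exonic bases) with Gm37587 on the opposite strand, which went from 1.69 to 0.03 TPM with heat in wild type, in the direction of Sox17. Nos3 shares 1040 bases (25.2%) with Gm15587 on the opposite strand, which went from 2.94 to 0.41 TPM. Ramp2 shares 1103 bases (33.4%) with Vps25 on the same strand, which went from 27.9 to 67.6 TPM. Egfl7 shares 64 bases with Agpat2, which was at 144 TPM in unheated wild type, 97.2 after heat in wild type and 222 after heat in the knockout. Cd34, Ecscr and Eng share 61 to 148 bases with genes on the opposite strand whose levels fell with heat in wild type. The part of these overlaps in the values of the 7 genes was not tested.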

How the data were processed

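RNA of 21 whole-testis libraries was extracted with Trizol and sequenced on an Illumina HiSeq from TruSeq stranded mRNA libraries, per the labels' protocols. Reads were aligned with STAR to mm10, per the submitters' processing notes. The authors deposited 1 table of TPM values with 1 column per library, and the tool that made the TPM values, its annotation, the strand setting and the STAR version are not stated in the sources used. Groups were taken from the sample labels. From the TPM values, log2(TPM + 1) was computed, and entries whose mean over the libraries was under 1 TPM were left out. A model of the 4 group means with a mean-dependent prior (limma 3.58.1 in R 4.3.3) gave 5 two-sided comparisons: heat in each genotype, genotype with and without heat, and the interaction of heat and genotype. Benjamini-Hochberg adjustment was made over all entries tested, and a gene was called at an adjusted p under 0.05. Fold changes are ratios of mean TPM, and log2 changes refer to log2(TPM + 1), so that changes of low genes are understated. Errors of log2 changes are moderated standard errors. TPM keeps no depth, so no counting interval is given.

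The 32 genes, the 17 comparison lists and the tests were chosen with earlier results of these data known. Values in every heated library are given for the member with the largest and the smallest moderated t in wild type in each role group. The same was done for members that were not called or went against the majority there. Their unheated groups are given by lowest, median and highest value, and Mageb4 by means and a range. Of each other list the 2 genes with the largest moderated t are named. The samples were not paired by replicate number, since the labels do not say that a number marks a shared litter, batch or day. Of 28 same-number pairs, 4 had a correlation of deviations over 0.1, which cannot exclude such sharing. Positions are from GENCODE M21 (GRCm38), matched by gene symbol. The fit was tested on simulated data before use. The alternatives tried were another pseudocount, filter and scaling, array weights, a replicate block, fits of the compared groups only, and leaving out each library. Python 3.11.15, pandas 2.3.3 and matplotlib 3.10.9 were used for joins and plots.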

Additional observations from a re-analysis of the deposited data

Results flagged for a closer look

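Of 132 sets of values (each of the 32 genes and their sum in each group of 4 to 6 libraries), 12 held 1 library far from the others by Dixon's test, where chance gives about 1 in 20 sets. In heated wild type, replicate 2 was high for Flt1 (2.47 TPM, the others 1.97 to 2.04), Cd93 (4.72, the others 3.37 to 3.6), Ecscr (6.56, the others 4.01 to 4.38) and the sum of the 32 genes (324.57, the others 259.55 to 268.41). Replicate 3 of that group, the library with epididymal RNA, was low for Kdr (3.91 TPM, the others 5.04 to 5.26). In the heated knockout, replicate 1 was high for Sox7 (0.89 TPM, the others 0.63 to 0.7), replicate 2 for Sox18 (2.71, the others 2.04 to 2.14) and replicate 4 for Sox17 (2.46, the others 1.55 to 1.77). In unheated wild type, replicate 1 was high for Ets1 (1.7 TPM, the others 1.07 to 1.3), replicate 4 for Fli1 (0.53, the others 0.39 to 0.42) and replicate 6 for Icam2 (1.16, the others 0.61 to 0.79). In the unheated knockout, replicate 6 was high for Tal1 (0.44 TPM, the others 0.2 to 0.27).

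The heat effect differed between the genotypes in the interaction test of limma for 22 of the 26 genes tested, where 80.7% of all entries tested were called and 47.6% had a lower effect in the knockout. On the log2 scale, knockout minus wild type, the difference was -0.71 for Kdr, -0.39 for Flt1, -0.70 for Tek and -0.46 for Tie1 among the receptors. For the junction genes it was -0.85 for Pecam1, -1.40 for Cdh5, -0.72 for Cldn5, -1.05 for Esam, -1.06 for Icam2 and -0.75 for Ptprb. For the surface glycoproteins it was -0.76 for Emcn, -0.85 for Podxl, -1.45 for Cd34, -0.91 for Cd93, -1.82 for Robo4, -0.62 for Ecscr, -0.49 for Eng and -0.87 for Ramp2. For Mmrn2 it was -0.88, for Ets1 -0.72, for Erg -0.89 and for Sox18 -0.59.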

How the results depend on the processing

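The counts of the 32 genes called kept within 1.5 times their value under most alternatives. With the filter at 5 TPM, 10 of the genes were tested: 9 were higher after heat in wild type, 9 in the knockout, 7 lower in the heated knockout and 7 with a smaller heat effect there. Without a filter, 2 genes were lower after heat in the knockout (Sox17 and Sox7). Median-of-ratios scaling gave 1 larger heat effect in the knockout (Sox17, 0.24), and quantile normalization 1 gene higher in the heated knockout (Egfl7). A fit of the unheated groups alone, and array weights, each called 1 gene higher in the unheated knockout (Cd34). With medians in place of sums, the change with heat of the endothelial level against the Sertoli list was -1.47 in wild type and -0.934 in the knockout, against the Leydig list -0.64 and -0.78, and against the pericyte list 0.033 and -0.13.

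Leaving out each library gave 25 to 26 genes higher after heat in wild type, 24 to 25 in the knockout, 22 to 23 lower in the heated knockout and 21 to 24 with a smaller heat effect there. The log2 ratio to the Sertoli list was -1.06 to -0.993 in wild type and -0.713 to -0.6355 in the knockout, that to the Leydig list -0.183 to -0.035 and -0.477 to -0.395, and that to the pericyte list 0.216 to 0.289 and 0.021 to 0.0867. With the replicate block every count of these genes was as reported (25 higher and 1 lower with heat in wild type, 24 and 1 in the knockout, 0 between unheated genotypes, 22 lower in the heated knockout, 22 with a smaller heat effect). Same-number pairs had correlations of -0.228 to 0.314, which cannot decide whether the numbers pair the samples. Over all entries the block called 173 higher and 8 lower in the unheated knockout. That count ranged from 15 higher and 4 lower (without unheated wild-type replicate 3) to 2138 higher and 210 lower (array weights).

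Besides the pericyte ratio, signs turned for small values of 3 genes. The log2 difference of Sox17 between heated genotypes was 0.0011 with a pseudocount of 5 TPM, 0.074 with median-of-ratios scaling, 0.0024 with the block, and -0.081 to 0.029 when 1 library was left out (above 0 without heated wild-type replicate 1 or 3 or heated knockout replicate 1, 2 or 3). That of Flt4 was 0.021 with median-of-ratios scaling. The interaction of Egfl7 was 0.11 with median-of-ratios scaling, 0.17 with quantile normalization, 0.014 with weights, 0.0099 with the block, and -0.070 to 0.044 when 1 library was left out (above 0 without unheated wild-type replicate 5, unheated knockout replicate 4 or heated knockout replicate 5). That of Sox17 was -0.08 with quantile normalization. Vwf passed the interaction test in 7 of the fits that left out a library. The interaction has no fit of the compared groups only, since it needs all 4. The causes were not tested. TPM keeps no depth, so no limit from depth could be computed.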

Other observations

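In the other cell type lists, the genes with the largest moderated t in wild type were higher after heat in the somatic cells. Sparc and Pdgfra of the stroma rose 9.40-fold and 8.31-fold in wild type, and 3.59-fold and 2.91-fold in the knockout. The Sertoli cell genes Cst12 and Tsx rose 8.45-fold and 7.12-fold in wild type, and 3.44-fold and 3.12-fold in the knockout. Of the Leydig cell genes, Cyb5a, which aids androgen synthesis, rose 7.14-fold and the steroid enzyme Hsd3b1 6.61-fold in wild type, and 2.93-fold and 3.28-fold in the knockout. The pericyte gene Rgs5 rose 6.43-fold and the myosin kinase Mylk 4.68-fold in wild type, and 2.97-fold and 2.03-fold in the knockout. In blood cells, the macrophage receptor Mrc1 rose 7.62-fold, the Fc receptor chain Fcer1g 8.27-fold, the red cell genes Alas2 and Hba-a2 9.43-fold and 6.53-fold, and the platelet genes Gp1bb and Pf4 15.2-fold and 4.53-fold in wild type. Aif1 was the 1 leukocyte gene lower in heated wild type, and it was not called lower in the heated knockout.

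Among germ cell genes, Crem and Catsper2 of round spermatids fell 4.81-fold and 23.5-fold in wild type, and Cdc25c and Ccna1 of spermatocytes 7.03-fold and 17.0-fold. Of 10 spermatogonial genes tested, 7 were higher and 1 lower in heated wild type (median log2 change 1.04), with Etv5 at 5.79-fold and Dmrt1 at 3.29-fold. Of 10 genes of elongating spermatids, 5 were higher and 3 lower in wild type (median 0.20) and 10 of 10 were higher in the knockout (median 0.73). Tnp2 of that list fell 4.42-fold in wild type, and Tppp2 rose 2.13-fold. Of 6 tested epididymal genes, 2 were higher and 1 lower in heated wild type, led by Rnase10, which fell 19.7-fold, and by Spink8, at 0.59 to 2.95 TPM in unheated and 11.52 to 1280.14 TPM in heated wild type. That group includes replicate 3, the library with epididymal RNA. The endothelial sum over the epididymal sum was 0.0709 in replicate 3 and 12.8 to 17.1 in the other heated wild-type libraries. The part of replicate 3 in these calls was not tested.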
